A study of Mus musculus with 90 samples.

Results

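The striatum of Q175 mice given the lowest dose of the phosphodiesterase inhibitor PF-02545920, 0.32 mg/kg, was compared with the striatum of Q175 mice given vehicle. The comparison took in 17 of the 90 libraries of the series, chosen by their titles: 10 libraries at 0.32 mg/kg (5 females and 5 males) and 7 vehicle libraries (5 females and 2 males). Both arms were C57BL6/J mice homozygous for the Q175 knock-in allele of Htt, a model of Huntington's disease, and were 9 months old. Oral dosing, once daily, with the inhibitor or with vehicle had begun at the age of 5 weeks, and the time between the last dose and dissection is not stated. Each library came from the flash-frozen striatum of the right hemisphere of 1 mouse. Mice are named here by sex and number within their arm, so that F4 is female 4. Beside these arms, Q175 striatum was sequenced at 1.0 mg/kg (10 mice) and 3.2 mg/kg (9 mice), along with the striatum of 9 wild-type (WT) mice given vehicle, and the cortex of all 45 mice.

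PDE10A, the target of the inhibitor, degrades both cyclic AMP and cyclic GMP, and in the brain it is found mainly in medium spiny neurons (MSNs), the projection neurons of the striatum. Its inhibition raises cyclic nucleotides, which act through protein kinase A and the transcription factor CREB on activity-regulated genes. Neurons of the indirect pathway carry the dopamine receptor D2 and those of the direct pathway the receptor D1. The Q175 allele lowers the transcripts that define MSNs, PDE10A among them.

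Deposited counts totalled 37.0 to 44.9 M per library at 0.32 mg/kg and 31.2 to 41.8 M in the vehicle arm (M, mega). The arm at 0.32 mg/kg was sequenced more deeply, at 41.0 ± 2.38 M (SD, n = 10) against 36.1 ± 4.06 M in vehicle (SD, n = 7; two-sided exact permutation test, p = 0.00905), and the part of depth in the results was not tested. The tissue label was compared with marker genes. The 21 measured MSN identity genes summed to 7282 to 9698 CPM (counts scaled to library size) in striatum at 0.32 mg/kg and 7640 to 8789 CPM in vehicle striatum, against 1962 to 2345 CPM in cortex at 0.32 mg/kg and 1929 to 2194 CPM in vehicle cortex. The 12 cortical excitatory neuron genes summed to 203 to 438 CPM in striatum at 0.32 mg/kg and 202 to 448 CPM in vehicle striatum, under the 1620 to 1909 CPM of the cortex libraries of these arms. In whole tissue, fewer cells of a type and less RNA per cell cannot be told apart.

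Htt, the gene that carries the knock-in, ranged from 106 to 124 CPM at 0.32 mg/kg (median 116) and from 108 to 125 CPM in vehicle (median 111). Its arms overlapped, and its log2 change was 0.02 ± 0.0408 (SE) once GC content and gene length were modelled (edgeR quasi-likelihood F test, adjusted p = 0.9898). Pde10a, the target of the drug, ranged from 597 to 836 CPM at 0.32 mg/kg (median 705) and from 649 to 779 CPM in vehicle (median 709), a change of 0.03 ± 0.0868 (edgeR, adjusted p = 0.994). Its log2 difference from WT was -1.47 at 0.32 mg/kg and -1.50 in vehicle, and both were called (edgeR, adjusted p = 6.96e-20 and 4.35e-18).

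The arms differed first in how the level of a gene related to its GC content. For each library a GC slope was computed, the change in log2 CPM relative to the mean of the 17 libraries for each 10 percentage points of GC content across genes. It ran from -0.0194 to 0.143 at 0.32 mg/kg with a median of 0.0379, and from -0.0891 to -0.00851 in vehicle with a median of -0.0655. GC-rich transcripts thus took a larger share of the counts at 0.32 mg/kg, and 9 of the 10 libraries lay above the highest vehicle library, M2. The exception was female F2 at -0.0194, and the highest were F5 at 0.143 and F1 at 0.120. The means were 0.0425 ± 0.0523 at 0.32 mg/kg (SD, n = 10) and -0.0608 ± 0.0264 in vehicle (SD, n = 7). Their difference of 0.103 passed a two-sided exact permutation test over libraries (p = 0.000206, adjusted p = 0.000309 over 3 such tests). Relative to the mean of all 45 striatum libraries, the median slope was 0.0504 at 0.32 mg/kg and -0.0530 in vehicle. It was 0.0555 at 1.0 mg/kg (-0.133 to 0.130), -0.0627 at 3.2 mg/kg (-0.140 to 0.0466) and -0.0132 in WT vehicle (-0.189 to 0.132).

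The cortex of the same mice showed the opposite order. Cortex slopes ran from -0.0904 to 0.0804 at 0.32 mg/kg (median -0.0472) and from 0.0107 to 0.104 in vehicle (median 0.0548), and 9 of 10 libraries at 0.32 mg/kg lay below the lowest vehicle library. The exception was male M4 at 0.0804. The means were -0.0410 ± 0.0480 at 0.32 mg/kg (SD, n = 10) and 0.0585 ± 0.0301 in vehicle (SD, n = 7), a difference of -0.0995 (two-sided exact permutation test, p = 0.000720, adjusted p = 0.000720). For the difference within a mouse, each slope was taken relative to the mean of all 45 libraries of its tissue. The slope in striatum minus that in cortex of the same mouse then averaged 0.108 ± 0.0780 at 0.32 mg/kg and -0.0952 ± 0.0454 in vehicle. That difference between tissues, 0.203, gave an exact permutation p of 0.000103, the smallest that 10 against 7 libraries allow (adjusted p = 0.000309). The cause of the slopes was not tested.

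**Figure D1:**
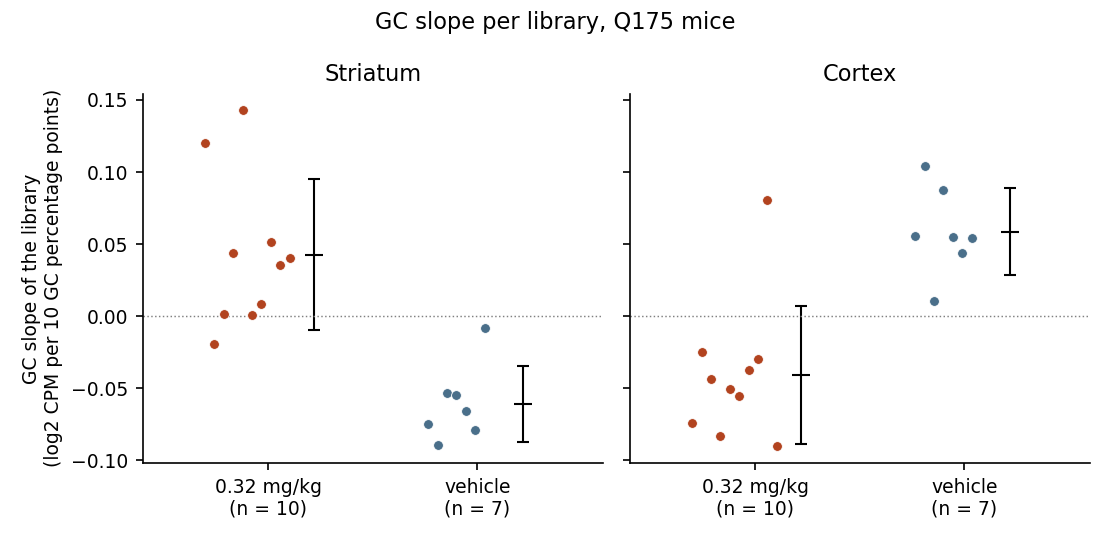
GC slope of each library (log2 CPM per 10 percentage points of GC content, y axis) in striatum and cortex of the Q175 mice at 0.32 mg/kg and with vehicle; points are single mice, and the marks beside them are the mean and SD. In striatum 9 of the 10 libraries at 0.32 mg/kg lie above the highest vehicle library, and in cortex 9 of the 10 lie below the lowest.

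In striatum the slope difference was 0.125 in females (5 against 5, exact permutation p = 0.00794) and 0.0712 in males, where 5 against 2 libraries reached the smallest p that this design allows (exact permutation p = 0.0952). The labels carry a code beginning with L whose meaning is not stated, and 4 of its values, L2, L4, L6 and L8, hold both arms. Within these the slope differed between the arms by 0.0901, 0.0582, 0.0898 and 0.136, and in each of the 4 the lowest library at 0.32 mg/kg lay above the highest vehicle library. They held 1, 2, 3 and 3 libraries at 0.32 mg/kg against 3, 1, 1 and 2 in vehicle. The values of L2, L4 and L6 thus rest on a single library in 1 of the arms. Mitochondrially encoded transcripts, which are GC-poor, took 7.99 to 9.72% of counts at 0.32 mg/kg (median 8.81%) and 9.21 to 10.8% in vehicle (median 9.72%), with 8 of 10 libraries at 0.32 mg/kg below the lowest vehicle library.

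Gene by gene, edgeR with terms for arm and sex and no GC term called 431 of 17315 genes tested (2.49%) at an adjusted p below 0.05. Of these, 375 were higher at 0.32 mg/kg (2.17%) and 56 lower (0.323%). The changes were small: 411 of the 431 were below 0.5 in log2 change either way, and their median size was 0.22. The higher genes had a median GC content of 59.6%, against 49.8% over all genes tested, and 362 of the 375 lay above the median of all genes. The lower genes had a median of 43.9%. Sorted into deciles of the tested genes by GC content, the highest decile held 247 of the 375 higher genes and the one below it 70, while the lowest 4 deciles held 11, 19, 10 and 8 of the lower ones. Leaving out single libraries moved the count widely: it was 3 without vehicle F2, 51 without vehicle F1, 60 without vehicle F3, 123 without vehicle F5, 143 without vehicle F4 and 165 without vehicle M1, and 805 without vehicle M2. In the arm at 0.32 mg/kg it was 109 without F5, 122 without M5, 143 without F1, 166 without M3 and 270 without M4. The median log2 change of all genes went up step by step with GC content, and was -0.08 in the lowest decile and 0.16 in the highest.

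The same test was then run with an offset for each gene and library that took up that library's trend with GC content and transcript length. The offsets were fitted with no knowledge of the arms. The GC slopes nearly separated the arms, however, so the offsets also take up any effect of the dose that follows GC content or length. They flatten the trend by design, and with them the medians of the 10 deciles lay between -0.0006 and 0.0083. The number of genes called was 19 (0.11%), of which 6 were higher (0.0347%) and 13 lower (0.0751%). The count of 19 became 2 without vehicle F3, 3 without vehicle F1, 8 without vehicle F2 and 12 without vehicle F5, and at 0.32 mg/kg 4 without M1, 5 without F1, 9 without M5 or F5, 10 without F3 and 12 without F4. At an unadjusted p below 0.05 the counts were 3307 genes with no GC term and 1364 with offsets. Genes called in both fits in the same direction numbered 8 (0.0462%), 6 higher and 2 lower. A further 423 genes were called only with no GC term, 369 of them higher, and 11 only with offsets, all lower.

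**Figure D2:**
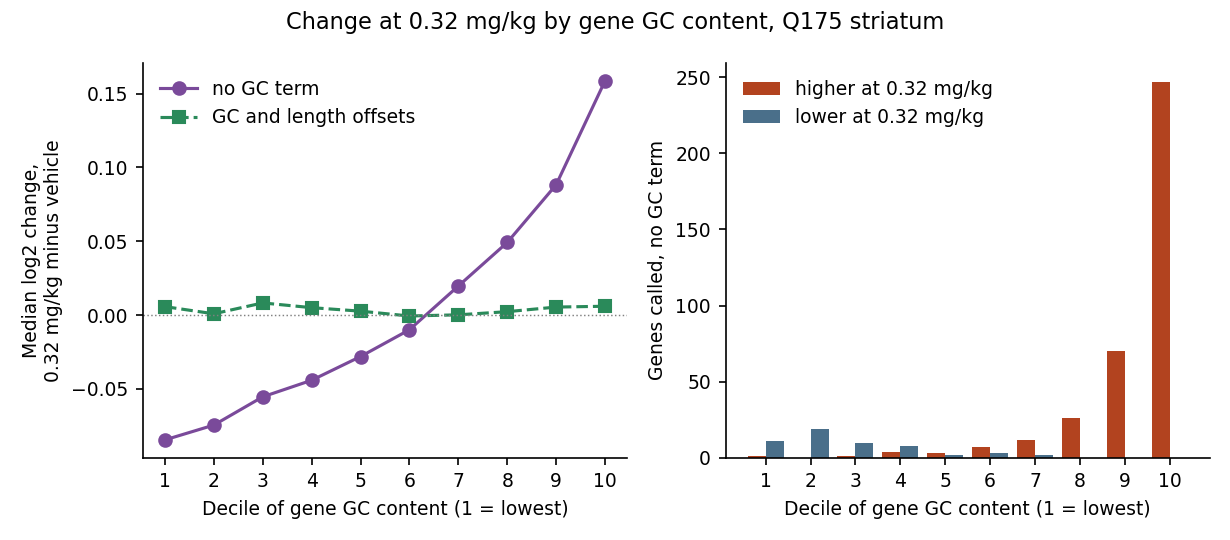
Median log2 change of 0.32 mg/kg minus vehicle in each decile of the tested genes by GC content, with no GC term and with GC and length offsets, and the number of genes called higher and lower in each decile with no GC term. With no GC term the medians climb from -0.08 to 0.16, and 247 of the 375 higher genes lie in the decile of highest GC content. With offsets, which remove the trend with GC content by design, the medians lie near 0.

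C1qtnf4 and Tceal1 were taken from the ends of the trend by the GC content of their transcripts. C1qtnf4, a secreted protein of the C1q and TNF related family on chromosome 2 with 70.7% GC in its longest transcript, is the most GC-rich of the named genes called higher with no GC term. Tceal1, a transcription elongation factor A-like gene on chromosome X with 38.6% GC, is among the most GC-poor nuclear genes called lower in that fit. The first 120 bases of their coding sequences (GENCODE M21, GRCm38, plus strand for both genes) are given 5′ to 3′ with every G and C in capitals. Both were picked for their GC content after their values were seen.
C1qtnf4: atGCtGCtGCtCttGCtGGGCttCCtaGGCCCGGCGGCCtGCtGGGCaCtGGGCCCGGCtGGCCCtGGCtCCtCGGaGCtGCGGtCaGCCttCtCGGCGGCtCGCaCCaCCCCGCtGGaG
Tceal1: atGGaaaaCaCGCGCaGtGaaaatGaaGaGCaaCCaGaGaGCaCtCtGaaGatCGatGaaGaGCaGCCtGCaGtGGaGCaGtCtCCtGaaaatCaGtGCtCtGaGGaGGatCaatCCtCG
In these stretches 88 of the bases of C1qtnf4 are G or C, against 60 of those of Tceal1. C1qtnf4 ranged from 64.2 to 82.0 CPM at 0.32 mg/kg (median 68.5) and from 41.7 to 58.9 CPM in vehicle (median 51.5), with no overlap between the arms. Its log2 change was 0.50 ± 0.0965 with no GC term (edgeR, adjusted p = 0.0132) and 0.28 ± 0.0697 with offsets, where it was not called (edgeR, adjusted p = 0.0824). Tceal1 ranged from 15.4 to 18.9 CPM at 0.32 mg/kg (median 16.8) and from 18.1 to 20.3 CPM in vehicle (median 19.2), with some overlap. Its log2 change was -0.17 ± 0.0494 with no GC term (edgeR, adjusted p = 0.0460) and -0.08 ± 0.0409 with offsets (edgeR, adjusted p = 0.614).

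The other genes of smallest p among those called only with no GC term were also GC-rich. Scrt1, a neuronal transcriptional repressor with 64.8% GC, ranged from 124 to 146 CPM at 0.32 mg/kg (median 132) and from 98.4 to 116 CPM in vehicle (median 108). Its arms did not overlap, yet its log2 change of 0.31 with no GC term (edgeR, adjusted p = 0.00753) was 0.09 with offsets (edgeR, adjusted p = 0.378). Prr7, a proline-rich synaptic membrane protein with 69.0% GC, changed by 0.45 with no GC term (edgeR, adjusted p = 0.0114) and 0.23 with offsets (edgeR, adjusted p = 0.142). Keap1, the adaptor that directs the oxidative stress regulator Nrf2 to degradation, changed by 0.21 with no GC term and 0.10 with offsets (edgeR, adjusted p = 0.0852 with offsets). Each of these 3 genes was higher in all 10 libraries at 0.32 mg/kg than in any vehicle library by CPM, and none was called once the trend was modelled.

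Of the 8 genes called in both fits, 7 are described here. Among them 2 encode mitochondrial proteins and were higher at 0.32 mg/kg. Uqcrq, a subunit of respiratory complex III on chromosome 11, ranged from 54.8 to 63.6 CPM at 0.32 mg/kg (median 57.5) and from 44.2 to 57.4 CPM in vehicle (median 47.6). The arms overlapped through 1 vehicle library, F4 at 57.4 CPM, which 5 of the 10 libraries at 0.32 mg/kg exceeded. Uqcrq rose by 0.30 ± 0.0641 on the log2 scale with offsets (edgeR, adjusted p = 0.0322) and by 0.28 ± 0.0618 with no GC term (edgeR, adjusted p = 0.0185). Chchd2, a protein of the mitochondrial intermembrane space that also acts in the nucleus, ranged from 197 to 223 CPM at 0.32 mg/kg (median 217) and from 184 to 207 CPM in vehicle (median 191), and 8 of the 10 libraries exceeded every vehicle library. It rose by 0.19 ± 0.0418 with offsets (edgeR, adjusted p = 0.0351) and by 0.15 ± 0.0377 with no GC term (edgeR, adjusted p = 0.0368). The annotation places part of Phkg1 over Chchd2 on the same strand.

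Both zinc finger genes in the set were higher. Zfp787 on chromosome 7 ranged from 9.26 to 12.1 CPM at 0.32 mg/kg (median 10.7) and from 7.44 to 9.75 CPM in vehicle (median 8.64), with 8 of 10 libraries above every vehicle library. It rose by 0.34 ± 0.0700 with offsets (edgeR, adjusted p = 0.0278), the largest change of the 19 genes called with offsets, and by 0.29 ± 0.0653 with no GC term (edgeR, adjusted p = 0.0191). Zfp865 ranged from 26.5 to 30.6 CPM at 0.32 mg/kg (median 29.3) and from 21.8 to 25.3 CPM in vehicle (median 23.1), with no overlap. With the offsets applied to its levels it ranged from 26.0 to 29.8 at 0.32 mg/kg and from 22.2 to 27.0 in vehicle, and the arms overlapped. It rose by 0.24 ± 0.0537 with offsets (edgeR, adjusted p = 0.0465) and by 0.33 ± 0.0645 with no GC term (edgeR, adjusted p = 0.0132). Other annotated genes overlap both, 2 at Zfp787 and 4 at Zfp865, and whether the counting used strand is not given.

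Acbd6, an acyl-CoA binding protein, and Stk19, a nuclear protein named as a serine/threonine kinase, were the other higher genes. Acbd6 ranged from 28.7 to 32.4 CPM at 0.32 mg/kg (median 30.6) and from 25.2 to 29.0 CPM in vehicle (median 28.4), and 9 of 10 libraries exceeded every vehicle library. It rose by 0.22 ± 0.0470 with offsets (edgeR, adjusted p = 0.0312) and by 0.17 ± 0.0366 with no GC term (edgeR, adjusted p = 0.0185). Stk19 ranged from 27.8 to 31.3 CPM at 0.32 mg/kg (median 28.4) and from 24.5 to 26.4 CPM in vehicle (median 25.4), with no overlap. It rose by 0.21 ± 0.0460 with offsets (edgeR, adjusted p = 0.0348) and by 0.19 ± 0.0445 with no GC term (edgeR, adjusted p = 0.0210).

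Snrpd3, an Sm core protein of the spliceosomal particles, ranged from 25.5 to 27.4 CPM at 0.32 mg/kg (median 26.6) and from 28.9 to 31.1 CPM in vehicle (median 29.7), with no overlap. It fell by 0.14 ± 0.0296 on the log2 scale with offsets (edgeR, adjusted p = 0.0278) and by 0.19 ± 0.0323 with no GC term (edgeR, adjusted p = 0.00753). Gucd1 overlaps Snrpd3 on the opposite strand.

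**Figure D3:**
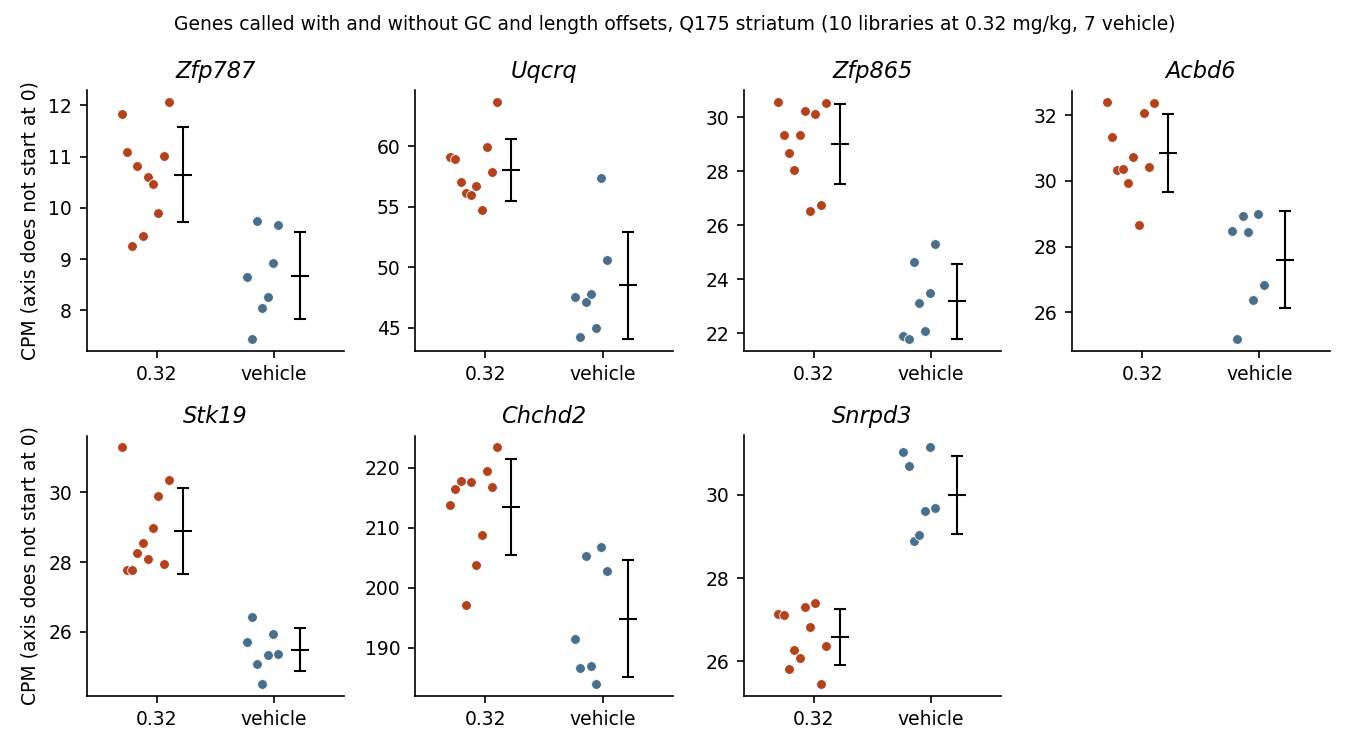
Level of single genes in each striatum library (CPM, y axis) at 0.32 mg/kg (10 mice) and with vehicle (7 mice); points are mice, marks are the mean and SD, each panel is 1 of the 7 genes described, and the y axes do not start at 0. By plain CPM the arms of Zfp865, Stk19 and Snrpd3 do not overlap, and the single high vehicle value of Uqcrq is F4 at 57.4 CPM. With the offsets applied, the arms of 2 of the 7 genes, Stk19 and Snrpd3, do not overlap. The genes were chosen by their difference between these arms, so nothing is read from the lack of overlap.

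These 8 calls were not stable to the choice of libraries or to the settings of the fit. The number of genes called in both fits ran from 0 to 10 when 1 of the 17 libraries was left out. It was 0 without vehicle F1 or vehicle F3, 1 without vehicle F2 or without M1, F1 or F5 at 0.32 mg/kg, 3 without M5 at 0.32 mg/kg, 4 without vehicle F5 and 5 without vehicle F4. The 7 genes described were each called in both fits in 4 (Chchd2, Zfp865) to 11 (Zfp787) of the 17 omissions. Their sign held under every alternative tried, and 6 of the 7, all but Zfp865, were also called when the offsets came from a joint surface of GC content and length. Across 8 other settings, such as other filters and covariates, the number called in both fits ran from 0 to 64. Each of the 7 was called in both fits in 3 to 5 of these 8 settings. With offsets for GC content alone, none of the 17315 genes was called.

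The 11 genes called only with offsets were all lower at 0.32 mg/kg. The 13 lower genes with offsets had a median transcript length of 788 bases, against 3195 over all genes tested, and a median GC content of 56.9%. Atp5k, a small subunit of the mitochondrial ATP synthase, ranged from 67.3 to 80.7 CPM at 0.32 mg/kg (median 71.9) and from 75.5 to 80.7 CPM in vehicle (median 76.6), with the arms overlapping. With the offsets applied to its levels it ranged from 68.0 to 76.9 at 0.32 mg/kg and from 78.1 to 84.5 in vehicle, with no overlap. It fell by 0.18 ± 0.0276 with offsets (edgeR, adjusted p = 0.000612), the smallest adjusted p of the comparison, and its log2 change with no GC term was -0.07 (edgeR, adjusted p = 0.278).

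Dynlrb1, a light chain of the motor dynein, fell by 0.18 with offsets (edgeR, adjusted p = 0.00505). The ribosomal genes Rpl26, Rpl38 and Rpl37a, of the large subunit, fell by 0.20, 0.17 and 0.15 (edgeR, adjusted p = 0.0147, 0.0216 and 0.0216). Ribosomal protein genes have near-identical pseudogene copies, so these counts are uncertain. Banf1, which tethers DNA to the nuclear envelope, fell by 0.16 and Mea1, named as a male-enhanced antigen, by 0.14 (edgeR, adjusted p = 0.0216 and 0.0310). The last 4 genes of the 11 were named after their values were seen. They were Maz, a zinc finger transcription factor (-0.18), Ptms, a small acidic nuclear protein (-0.20), Tmem147, a membrane protein of the endoplasmic reticulum (-0.13), and the predicted gene Gm10231 (-0.11). With no GC term the log2 changes of the 11 ran from -0.09 to 0.05, and by plain CPM the arms overlapped for all of them. The joint surface of GC content and length called 4 of the 11, Atp5k, Dynlrb1, Banf1 and Mea1. Offsets for GC content alone, with no length term, called none of the 17315 genes (1256 at an unadjusted p below 0.05).

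The 33 gene lists examined held 504 tested genes. With no GC term members were called in 7 lists. The median log2 change lay within 0.1 of 0 in 28 lists with offsets, beside 0.00 over all genes tested. The other 5 were the blood genes (-1.08), ependymal genes (-0.25), genes of thalamus and hypothalamus (0.17), choroid plexus genes (0.12) and activity-regulated genes (0.12).

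Activity-regulated and CREB target genes, which cyclic AMP induces through CREB, gave 0 of 24 called at 0.32 mg/kg in either fit, against backgrounds of 2.49% and 0.11%. Their lowest adjusted p with offsets was 0.620 (edgeR). With offsets the median log2 change was 0.12, and the values ran from -0.12 to 0.50. Of the 24 values 22 were above 0 with offsets, where 9063 of all 17315 genes were. With no GC term 19 were, where 7958 of all genes were. The 24 genes were measured in the same mice, so their signs are not independent. Egr3, an immediate early transcription factor, ranged from 32.7 to 57.2 CPM at 0.32 mg/kg (median 37.5) and from 28.3 to 35.7 CPM in vehicle (median 31.2). Of the 10 libraries, 8 exceeded every vehicle library, and its log2 change was 0.30 ± 0.145 (edgeR, adjusted p = 0.620). Junb, a subunit of the AP-1 transcription factor, ranged from 23.4 to 71.3 CPM at 0.32 mg/kg (median 33.0) and from 21.6 to 37.4 CPM in vehicle (median 24.1), with 3 of 10 above every vehicle library and a change of 0.31 ± 0.217. Arc, which acts in synaptic receptor trafficking, ranged from 65.6 to 139 CPM at 0.32 mg/kg (median 93.3) and from 53.0 to 128 CPM in vehicle (median 70.1), a change of 0.25 ± 0.200. Fos, the classic marker of recent neuronal activity, ranged from 5.41 to 16.1 CPM at 0.32 mg/kg and from 4.40 to 18.4 CPM in vehicle, so that the vehicle arm held both ends. The male M5 was the highest of the 10 libraries for 17 of the 24 genes, with a median log2 CPM over the list 0.59 above the median of its arm, ahead of M4 at 0.30.

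Most of the same genes differed in level between the lowest dose and the highest. Set against 3.2 mg/kg directly, which uses no vehicle library, 867 genes were called at 0.32 mg/kg with offsets (5.01%), 501 of them lower (2.89%). With no GC term 1944 were called (11.2%). The median GC slopes of these 2 arms, relative to all 45 striatum libraries, were 0.0504 and -0.0627. Their part in these counts was not tested beyond the offsets. Of the 24 activity-regulated genes, 21 were lower at 0.32 mg/kg than at 3.2 mg/kg, and the list's median log2 difference was -1.36, beside 0.00 over all genes. Fos had a median of 9.24 CPM at 0.32 mg/kg and 39.8 CPM at 3.2 mg/kg, a difference of -2.12 ± 0.256 (edgeR, adjusted p = 6.87e-08). Junb had a median of 33.0 CPM at 0.32 mg/kg and 134 CPM at 3.2 mg/kg, a difference of -2.03 ± 0.193 (edgeR, adjusted p = 2.86e-10). Egr2, which had a median of 2.75 CPM at 0.32 mg/kg and 26.8 CPM at 3.2 mg/kg, differed by -3.04 ± 0.345 (edgeR, adjusted p = 1.78e-08). The 3 members not lower by this test were Npas4, Bdnf and Ppargc1a. By CPM, all 10 libraries at 0.32 mg/kg lay below every library at 3.2 mg/kg for Fosl2, Nr4a3, Dusp1 and Dusp6. That number was 9 for Fos, Junb and Egr2, 2 for Egr3 and 0 for Ppargc1a, so the doses overlapped for these genes.

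Set against 1.0 mg/kg, 0 of 17315 genes were called by edgeR in either fit (1148 and 1354 at an unadjusted p below 0.05, with no GC term and with offsets), and the list's median log2 difference with offsets was -0.29. Each dose against vehicle uses the same 7 vehicle libraries, so their values are not independent. Side by side, the list's median with offsets was 0.12 at 0.32 mg/kg with 0 called, 0.45 at 1.0 mg/kg with 0 called, and 1.51 at 3.2 mg/kg with 20 called, all higher, where 1.59% of all genes were called higher. Fos was at 0.11, 0.82 and 2.23, Junb at 0.31, 0.88 and 2.34, and Egr3 at 0.30, 0.38 and 0.95, from the lowest dose to the highest.

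**Figure D4:**
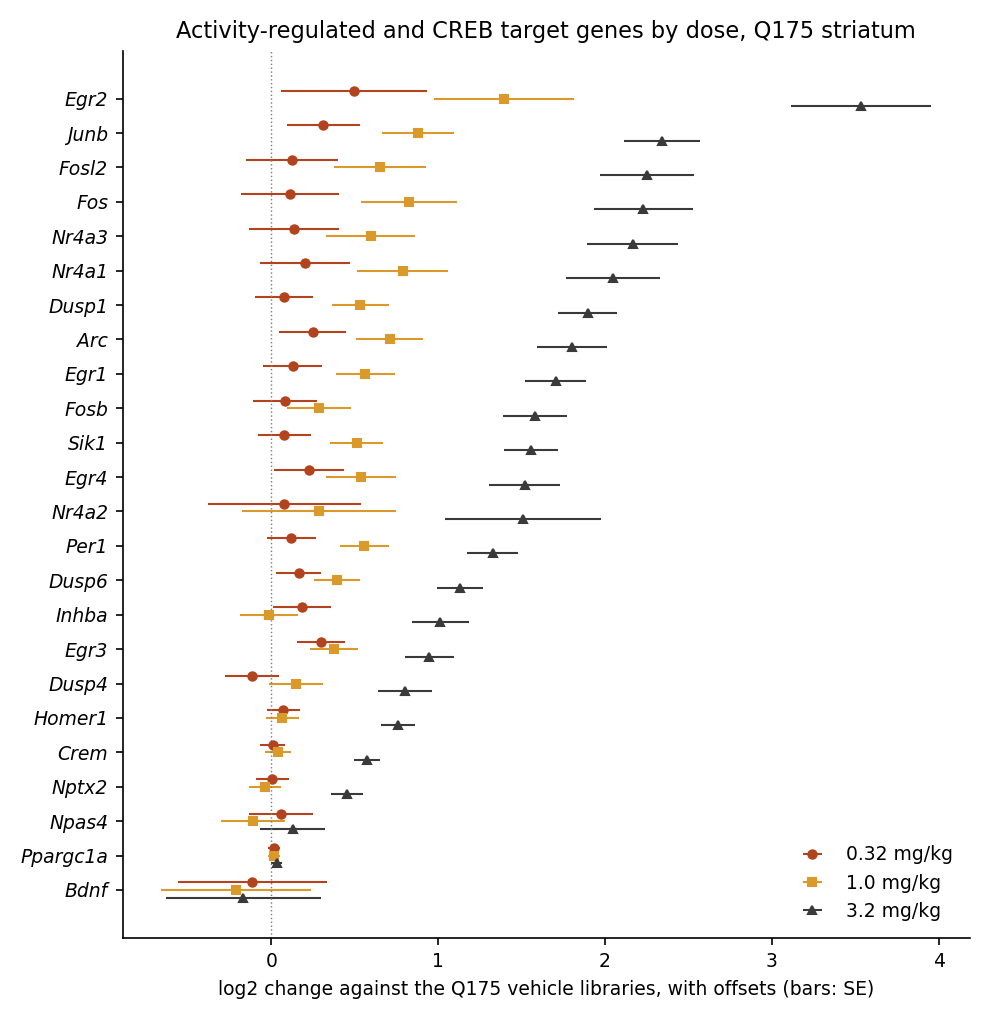
Log2 change against the Q175 vehicle libraries, with offsets, of each activity-regulated and CREB target gene (rows) at 0.32, 1.0 and 3.2 mg/kg; bars are SE, and the 3 doses share the vehicle libraries. The points at 0.32 mg/kg lie between -0.12 and 0.50, and those at 3.2 mg/kg reach 3.54 for Egr2.

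MSN identity genes gave 0 of 21 called at 0.32 mg/kg in either fit. Their median log2 change was 0.01 with offsets and 0.06 with no GC term, and single values with offsets ran from -0.06 to 0.16. All 21 were lower in vehicle Q175 mice than in WT mice, where 25.2% of all genes were, with a median of -1.04 (with offsets). The largest value at 0.32 mg/kg was that of Rasgrp2, an exchange factor for the GTPase Rap, which ranged from 157 to 190 CPM at 0.32 mg/kg (median 171) and from 147 to 171 CPM in vehicle (median 149), a change of 0.16 ± 0.0684 (edgeR, adjusted p = 0.511). Bcl11b, a transcription factor needed for MSN development, ranged from 173 to 227 CPM at 0.32 mg/kg (median 192) and from 171 to 189 CPM in vehicle (median 180), a change of 0.13 ± 0.0646 (edgeR, adjusted p = 0.620). Rgs9, a regulator of G protein signalling, changed by 0.12 ± 0.0700 and Foxp1, a forkhead transcription factor, by 0.07 ± 0.0533, and neither was called.

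No indirect-pathway or direct-pathway gene was called in either fit, of 7 and 9 tested, and the medians with offsets were 0.00 and -0.02. Drd2, the D2 receptor, ranged from 77.3 to 108 CPM at 0.32 mg/kg (median 91.6) and from 81.9 to 105 CPM in vehicle (median 90.7). Drd1, the D1 receptor, ranged from 92.4 to 135 CPM at 0.32 mg/kg (median 117) and from 115 to 142 CPM in vehicle (median 118), and 5 of 10 libraries lay below every vehicle library. Its log2 change was -0.11 ± 0.0717 with no GC term and -0.05 ± 0.0659 with offsets (edgeR, adjusted p = 0.432 and 0.961). Penk, the enkephalin precursor of the indirect pathway, and Pdyn, the dynorphin precursor of the direct pathway, changed by -0.05 ± 0.0704 and -0.13 ± 0.104 with offsets, and neither was called.

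Of the 7 indirect-pathway genes, 3 differed between the lowest and the highest dose with offsets, 2 of them higher and 1 lower at 0.32 mg/kg, and the median log2 difference of the 7 was -0.0021. Gpr6, a receptor of indirect-pathway neurons that signals through cyclic AMP, ranged from 27.4 to 36.5 CPM in vehicle (median 32.8), from 27.1 to 40.3 CPM at 0.32 mg/kg (median 33.7), and from 14.0 to 22.4 CPM at 3.2 mg/kg (median 17.8). All 10 libraries at 0.32 mg/kg lay above every library at 3.2 mg/kg, and Gpr6 was higher at 0.32 mg/kg than at 3.2 mg/kg by 0.85 ± 0.0837 (edgeR, adjusted p = 5.90e-10), where 2.11% of all genes were higher. Sp9, a transcription factor of indirect-pathway neurons, was higher by 0.36 ± 0.0713 in that comparison and Penk was lower by a log2 difference of -0.30 ± 0.0650 (edgeR, adjusted p = 0.000780 and 0.00209).

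Of 29 cyclic nucleotide genes tested, 0 were called at 0.32 mg/kg in either fit, and the median log2 change with offsets was -0.01. Prkaca, a catalytic subunit of protein kinase A, ranged from 135 to 144 CPM at 0.32 mg/kg (median 139) and from 135 to 148 CPM in vehicle (median 144), a change of -0.09 ± 0.0274 (edgeR, adjusted p = 0.162). Pde8b, a cyclic AMP phosphodiesterase, and the guanylyl cyclase subunits Gucy1a1 and Gucy1a2 changed by -0.05 ± 0.0457, -0.06 ± 0.0540 and 0.18 ± 0.102, none of them called. Against 3.2 mg/kg, 4 of the 29 were lower at 0.32 mg/kg, where 2.89% of all genes were. They were the cyclic AMP phosphodiesterases Pde4a (-0.22 ± 0.0394), Pde4b (-0.14 ± 0.0320) and Pde4d (-0.27 ± 0.0550), and Prkaca (-0.10 ± 0.0253).

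Neurotransmitter receptors gave 0 of 24 called with offsets and 1 with no GC term, Grin1, the obligatory NMDA receptor subunit, which changed by 0.16 with no GC term (edgeR, adjusted p = 0.0472) and 0.02 with offsets (edgeR, adjusted p = 0.988). Htr4, a serotonin receptor coupled to cyclic AMP, ranged from 1.83 to 3.67 CPM at 0.32 mg/kg (median 2.46) and from 2.64 to 4.31 CPM in vehicle (median 3.45), and 7 of 10 libraries lay below every vehicle library. Its log2 change was -0.33 ± 0.115 with offsets (edgeR, adjusted p = 0.327).

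The developmental transcription factors, genes of other tissues that are raised in Q175 striatum, gave 0 of 13 called at 0.32 mg/kg and a median of 0.02 with offsets. In vehicle Q175 mice 10 of the 13 were higher than in WT mice, where 24% of all genes were, with a median of 5.27 (with offsets). The list was chosen with earlier results of these data known, so nothing is read from that share. Wt1, a zinc finger factor of kidney and gonad, ranged from 3.04 to 5.41 CPM at 0.32 mg/kg (median 4.23) and from 4.16 to 6.86 CPM in vehicle (median 5.30). Of the 10 libraries 5 lay below every vehicle library, and the other 5 lay within the vehicle range. Its log2 change was -0.31 ± 0.104 with offsets (edgeR, adjusted p = 0.286), beside 5.85 for vehicle Q175 against WT. Pax2, a paired box factor, changed by 0.45 ± 0.248 and Pou4f1, a POU factor of sensory neurons, by 0.17 ± 0.181, and neither was called.

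All 13 mitochondrially encoded genes, whose median GC content is 37.1%, had log2 changes below 0 in both fits. Over all 17315 genes tested, 7958 lay above 0 with no GC term and 9063 with offsets. With no GC term 4 were called lower at 0.32 mg/kg, mt-Nd2, mt-Cytb, mt-Co2 and mt-Co3, and the list's median was -0.16. With offsets none was called, the median was -0.09, and all 13 values lay below 0, from -0.15 to -0.05. The subunit mt-Nd2 of complex I ranged from 3177 to 4462 CPM at 0.32 mg/kg (median 3770.05) and from 4084 to 5154 CPM in vehicle (median 4406). Of the 10 libraries 8 lay below every vehicle library, and the change was -0.23 ± 0.0592 with no GC term and -0.14 ± 0.0508 with offsets (edgeR, adjusted p = 0.0338 and 0.344). Summed over the list, levels ran from 72980 to 90679 CPM at 0.32 mg/kg and from 85266 to 102650 CPM in vehicle. In the cortex of the same mice all 13 were called higher at 0.32 mg/kg with no GC term (median 0.25), where 10.2% of all genes were called. With offsets 1 was called higher there (median 0.08), where 1.36% of all genes were called.

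Among the nuclear genes of oxidative phosphorylation, of 24 tested, 1 was called higher with no GC term, Uqcrc1, a core protein of complex III, and none with offsets, where the median was 0.00. Uqcrc1 ranged from 187 to 205 CPM at 0.32 mg/kg (median 198) and from 171 to 186 CPM in vehicle (median 182), with no overlap, and changed by 0.13 ± 0.0366 with no GC term and 0.11 ± 0.0288 with offsets (edgeR, adjusted p = 0.0459 and 0.126). Cyc1, the cytochrome c1 of the same complex, with 61.4% GC, changed by 0.05 ± 0.0329 with no GC term and -0.13 ± 0.0316 with offsets (edgeR, adjusted p = 0.449 and 0.0714), so that its sign depended on the offsets. Rplp0, a protein of the ribosomal stalk, ranged from 170 to 192 CPM at 0.32 mg/kg (median 177) and from 163 to 169 CPM in vehicle (median 164). Its arms did not overlap, and its change of 0.11 ± 0.0344 with offsets was not called (edgeR, adjusted p = 0.242).

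Blood transcripts stood apart through 1 vehicle library. Hbb-bt, a beta-globin, ranged from 5.96 to 13.0 CPM at 0.32 mg/kg (median 11.1) and from 6.57 to 129 CPM in vehicle (median 12.6), and the 129 CPM came from vehicle F4. Alas2, the erythroid enzyme of heme synthesis, ranged from 0.810 to 1.87 CPM at 0.32 mg/kg (median 1.18) and from 0.830 to 15.6 CPM in vehicle (median 1.37), again with F4 highest. Both were called lower with no GC term (log2 changes of -1.34 and -1.45, edgeR, adjusted p = 0.0392 and 0.0404) and neither with offsets (edgeR, adjusted p = 0.109 and 0.126). Without vehicle F4 the log2 changes of the globins Hbb-bs and Hba-a2 with offsets were 0.085 and 0.065, against -1.08 and -1.03 with it.

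Markers of the other cell types showed no called member with offsets. Oligodendrocyte genes summed to 7851 to 11889 CPM at 0.32 mg/kg and 8276 to 10583 CPM in vehicle, astrocyte genes to 3836 to 4372 CPM at 0.32 mg/kg and 3931 to 4254 CPM in vehicle, and microglia genes to 700 to 881 CPM at 0.32 mg/kg and 744 to 866 CPM in vehicle. Choroid plexus genes summed to 364 to 718 CPM at 0.32 mg/kg and 346 to 592 CPM in vehicle, and thalamic and hypothalamic genes to 66.6 to 144 CPM at 0.32 mg/kg and 66.0 to 132 CPM in vehicle. None of these sums separated the arms.

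The effect of the dose was also set against that in the cortex of the same mice. In cortex 1789 of 17603 genes were called between 0.32 mg/kg and vehicle with no GC term (10.2%) and 239 with offsets (1.36%). The test of the difference, striatum minus cortex with the mouse as a block, called 3962 of 18014 genes with no GC term (22%) and 593 with offsets (3.29%). Of the 7 genes described that were called in both fits in striatum, 5 differed between the tissues with offsets, all but Acbd6 and Snrpd3. Zfp787 changed by 0.34 in striatum and -0.25 in cortex, a difference of 0.56 (edgeR, adjusted p = 0.000508), and Uqcrq by 0.30 in striatum and -0.07 in cortex, a difference of 0.36 (edgeR, adjusted p = 0.00512). Stk19 changed by 0.21 in striatum and -0.08 in cortex, a difference of 0.28 (edgeR, adjusted p = 0.000702). Of the 18 genes described that were called with offsets, 15 differed between the tissues. These genes were chosen by their change in the same striatum libraries, which enters the difference, so nothing is read from their share. The GC slopes of the 2 tissues ran in opposite directions between the arms, and their part in these differences was not tested beyond the offsets.

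The values of the same 7 genes at the other doses were these. Against vehicle, 2 of them were called at 1.0 mg/kg with offsets, Zfp787 (0.34, edgeR, adjusted p = 0.0448) and Stk19 (0.24, edgeR, adjusted p = 0.0293), and 1 at 3.2 mg/kg, Stk19 (0.21, edgeR, adjusted p = 0.00425). The background of these comparisons was 0.0289% at 1.0 mg/kg and 1.88% at 3.2 mg/kg, and all of them share the vehicle libraries. The other 6 had values between -0.10 and 0.03 at 3.2 mg/kg. Set against 3.2 mg/kg directly, 5 of the 7 differed at 0.32 mg/kg, among them Uqcrq by 0.40 (edgeR, adjusted p = 5.61e-06) and Zfp787 by 0.31 (edgeR, adjusted p = 0.00108), while Stk19 differed by -0.00086 (edgeR, adjusted p = 0.997). That comparison uses the same libraries at 0.32 mg/kg that gave the 7 genes. The difference in response between females and males gave no called gene of 17315 (edgeR, 0 in either fit, with 418 and 527 at an unadjusted p below 0.05 with no GC term and with offsets), with only 2 vehicle males behind that test.

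The position of each library between WT and Q175 was given by a score along the difference between WT mice and the Q175 mice at 1.0 and 3.2 mg/kg, which leaves both compared arms out of the axis. It is 0 at the WT mean and 1 at the mean of those Q175 mice. With offsets and 9889 genes it was 0.958 ± 0.0316 at 0.32 mg/kg (SD, n = 10) and 0.948 ± 0.0346 in vehicle (SD, n = 7). The ranges, 0.924 to 1.03 at 0.32 mg/kg and 0.909 to 0.988 in vehicle, overlapped, and the arm means lay closer together than 1 SD of either. With no GC term and 9192 genes the score was 0.956 ± 0.0307 at 0.32 mg/kg and 0.950 ± 0.0342 in vehicle. Against WT, 9429 genes were called at 0.32 mg/kg with offsets (54.5%) and 8527 in vehicle (49.2%), with 10 and 7 mice in these comparisons and the same WT libraries in both.

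**Figure D5:**
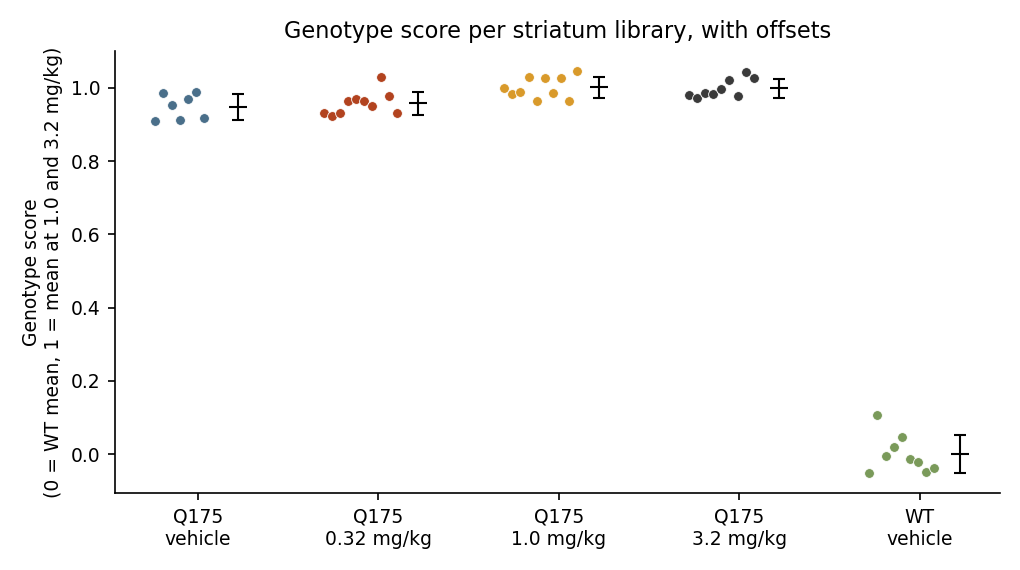
Genotype score with offsets for each striatum library (y axis, 0 at the WT mean and 1 at the mean of Q175 mice at 1.0 and 3.2 mg/kg) for Q175 mice from vehicle to the highest dose and for WT mice; points are mice, with the mean and SD. The 10 mice at 0.32 mg/kg lie between 0.924 and 1.03, over the range of the 7 vehicle mice.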

How the data were processed

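RNA of striatum and of cortex was sequenced for 45 mice, in 90 libraries. For every gene the authors deposited an estimated count, fractional for some genes, and FPKM values. The tools named in the submitters' processing notes include CASAVA 1.8.2. Aligner, counting tool, build and strand setting: not given in the sources used here. Of the deposited counts 81.5% lay within 1e-06 of a whole number. They were rounded before testing. Symbols, GC content and length (longest transcript) were taken from GENCODE M21 (GRCm38). The authors may have used another build. It named 36723 of 38561 IDs.

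Genes were tested with edgeR 4.0.16 (R 4.3.3), quasi-likelihood F test, TMM factors, edgeR's expression filter and terms for arm and sex over all 45 striatum libraries, with Benjamini-Hochberg adjustment over 17315 genes and calls at an adjusted p below 0.05. The second fit added offsets: for each library, natural splines (5 degrees of freedom) of log2 CPM (prior count 2) minus the gene's mean, on GC content and on log length. GC content was known for 98.5% of the genes tested. Both fits were also run on counts simulated with the same kind of GC and length curves that the offsets remove. There the fit with no GC term called many more unchanged genes than the fit with offsets. That order was built into the simulation, so it cannot show whether the offsets suit the real libraries. The tissue difference used all 90 libraries with the mouse as a block.

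Alternatives were DESeq2 1.42.0, other filters and scalings, limma 3.58.1 on the deposited FPKM values (log2(FPKM + 0.1) and log2(FPKM + 1)), other covariates, other offsets and leaving out each library. Every pair of striatum libraries differed by more than counting noise (chi-square per degree of freedom at least 3.41), and Xist matched the labelled sex in 45 of 45. The groups, the gene lists and the comparisons were chosen with earlier results of these data known. Named genes were Htt, Pde10a, the genes called in both fits, those of smallest p called in 1 fit, and up to 4 genes of each described list, by smallest p with offsets; predicted genes were passed over. Some genes that meet these rules are not reported here. Lists are described by counts and medians, with no test of a list.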

Additional observations from a re-analysis of the deposited data

Results flagged for a closer look

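Single libraries stood apart from the rest of their arm in 16 of 140 groups of values examined, where chance flags about 1 in 20. Several flags share a library and related genes, so they are not independent and nothing is read from their number. Some are small: Rpl38 in vehicle F4, at 103 CPM, lay within the range of 95.0 to 117 CPM at 0.32 mg/kg. At 0.32 mg/kg, M5 was apart for the activity-regulated genes Egr3 (57.2 CPM), Junb (71.3 CPM) and Dusp6 (42.5 CPM), F1 for the ribosomal genes Rpl26 (251 CPM) and Rpl38 (117 CPM), F5 for Scrt1 (146 CPM), M3 for the genotype score with no GC term (1.03) and M4 for the GC slope in cortex (0.0804). In vehicle, F4 was apart for the blood genes Hbb-bs (522 CPM), Hba-a2 (348 CPM), Hbb-bt (129 CPM) and Alas2 (15.6 CPM), and for Rpl38 (103 CPM) and Pax2 (1.27 CPM). Vehicle F1 was apart for Arc (128 CPM) and Junb (37.4 CPM).

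The effect of 0.32 mg/kg differed between striatum and cortex for the GC slope (0.203 per 10 percentage points of GC content, exact permutation test) and for 26 of the named genes (edgeR with the mouse as a block, called with offsets). Over all genes tested, 593 of 18014 were called (3.29%). Many of the named genes were chosen by their values in the same striatum libraries, which enter the difference, so nothing is read from their number. The values are log2 changes in striatum minus those in cortex. Among the genes of both fits it was 0.56 for Zfp787, 0.36 for Uqcrq and for Zfp865, 0.28 for Stk19 and 0.22 for Chchd2. Among those called only with offsets it was -0.33 for Ptms, -0.32 for Atp5k, Rpl38 and Rpl37a, -0.30 for Dynlrb1, -0.24 for Maz, -0.23 for Rpl26, -0.22 for Mea1, -0.18 for Banf1 and -0.15 for Gm10231. Among those called only with no GC term it was 0.53 for C1qtnf4, 0.50 for Prr7 and 0.091 for Keap1. In the lists it was -0.36 for mt-Atp8, -0.24 for mt-Nd4l, -0.18 for mt-Nd2, -0.17 for mt-Co2, -0.19 for Cyc1, 0.14 for Uqcrc1, 0.21 for Cox5a and -0.12 for Rpl32.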

How the results depend on the processing

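With no GC term the 431 genes called became 140 with no filter, 1358 in the 17 libraries alone, 63 without sex, 81 with the L code as a term, 837 with DESeq2 and 19 without F1 and F5 at 0.32 mg/kg (chosen after seeing the data). The GC slope of the library as a covariate or offsets for GC content alone left 0 (edgeR, 1024 and 1256 at an unadjusted p below 0.05). Leaving out 1 library gave 3 to 805. With GC and length offsets the 19 became 3 with no filter, 87 in the 17 libraries alone, with common or their own offsets, 6 with the L code, 7 without F1 and F5, and 0 with offsets for GC content alone. A joint surface and GC content averaged over transcripts, both added later, gave 13 each, and leaving out 1 library gave 2 to 24. The 8 genes called in both fits became 0 with no filter, 64 in the 17 libraries alone, 4 without sex, 1 with the L code, 1 without F1 and F5, and 0 to 10 without 1 library. The cause of these shifts was not tested. The difference in GC slope, 0.0922 to 0.112 without 1 library, kept its direction under every alternative tried. The difference in genotype score was computed only with and without offsets, and both values lay under 1 SD of either arm.

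Replicate numbers are shared by the arms. The same-numbered libraries of the 7 pairs correlated at -0.16 to 0.12, and only F2 correlated best with its own number, so the numbers were not taken as pairing. The replicate block gave 405 calls with no GC term, 0 with GC and length offsets (edgeR, 1482 at an unadjusted p below 0.05) and 0 in both fits.

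For single named genes the log2 change turned sign in 7 of the settings: Htt to -0.010 and Drd1 to 0.0079 without F1 and F5, Pde10a to -0.0061 with the L code, Bcl11b to -0.0037 and Foxp1 to -0.0065 with GC content averaged over transcripts, and Hbb-bs to 0.085 and Hba-a2 to 0.065 without vehicle F4. Without 1 library, these ran from -1.25 to 0.085 for Hbb-bs and from -1.20 to 0.065 for Hba-a2. Of the other settings of named genes, 260 lost a call, 8 gained one and 1641 changed neither. Genes not called in the main fit had no call to lose, so the 1641 do not measure how stable the calls were. Tmem147 lost its call in 24 settings and kept it in 5, and Chchd2 and Zfp865 each lost it in 20 and kept it in 9. Atp5k lost it in 2 and kept it in 27. At 31.2 to 44.9 M counts per library, depth limits the rarest genes, such as Hoxd8 at 0.221 to 0.956 CPM at 0.32 mg/kg and 0.285 to 0.952 CPM in vehicle.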

Other observations

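Outside the lists described above, the lowest dose stood below the highest for genes of the circadian clock. Of 17 clock genes 6 were lower at 0.32 mg/kg than at 3.2 mg/kg with offsets (edgeR), where 2.89% of all genes were, and 0 of the 17 were called between 0.32 mg/kg and vehicle in either fit. Ciart, a repressor of the clock, differed by -1.11 ± 0.169, Bhlhe40, a repressor that also answers to neuronal activity, by -0.97 ± 0.0958, and Per2, a core clock repressor, by -0.73 ± 0.109 (edgeR, adjusted p = 1.06e-05, 5.90e-10 and 7.72e-06). The other 3 were Bhlhe41 (-0.39), Cry1 (-0.22) and Nr1d2 (-0.18). Against vehicle, Ciart, Bhlhe40 and Per2 at 0.32 mg/kg had log2 changes of -0.06, 0.08 and 0.03.

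Members of other lists were also lower at 0.32 mg/kg than at 3.2 mg/kg with offsets, where 2.89% of all genes were. Among them were 1 of 20 chromatin regulators, too few to set apart from that share, and 3 of 18 heat shock and chaperone genes. A gene of each is given, chosen after its values were seen. Kdm6b, a histone H3K27 demethylase, differed by -0.93 ± 0.0875 and Dnajb5, a chaperone of the Hsp40 family, by -0.89 ± 0.0959 (edgeR with offsets, adjusted p = 2.65e-10 and 5.22e-09). Their changes at 0.32 mg/kg against vehicle were 0.09 and 0.14, and neither was called.

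Among the list members called with no GC term were also Dlgap3 and Ache. Dlgap3, a scaffold protein of striatal synapses, changed by 0.31 with no GC term (edgeR, adjusted p = 0.0230) and 0.09 with offsets (edgeR, adjusted p = 0.527). Ache, the acetylcholinesterase, changed by 0.18 with no GC term (edgeR, adjusted p = 0.0374) and 0.05 with offsets (edgeR, adjusted p = 0.774). They belong to the lists of postsynaptic scaffold genes and of markers of cholinergic neurons, whose medians with offsets were 0.02 and 0.04.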
